A study of Homo sapiens with 4 samples.

Results

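The LIN28B axis and the oncofetal RNA binders were read out in neuroblastoma cells in which TTC8 had been lowered. The set holds 9 genes: LIN28A and LIN28B, the RNA binders IGF2BP1, IGF2BP2 and IGF2BP3, the chromatin proteins HMGA1 and HMGA2, and the nucleases DICER1 and DIS3L2. They were chosen by symbol, and each matched 1 Ensembl gene ID among the 64252 in the count table. Of the 9, DICER1 and IGF2BP3 were lower in the knockdown, and HMGA1 was higher by a small amount whose call depended on the processing. LIN28B and DIS3L2 were not called. The remaining 4 had 19 counts or fewer in every library.

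Total RNA was sequenced from SK-N-BE(2), an established human neuroblastoma line that carries an amplified MYCN gene. The cells had received a short hairpin RNA against TTC8 (shTTC8, 2 libraries) or a scramble hairpin (shScb, 2 libraries), so a hairpin was present in both groups. The sources used here give neither the number and sequences of the hairpins nor the time after transfection. The labels do not tie the libraries to separate cultures. The p-values therefore reflect the spread among 4 samples, and that spread could be technical.

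LIN28 proteins bind the precursors of let-7 microRNAs and block their maturation. In the cytoplasm LIN28A recruits the terminal uridylyl transferases TUT4 and TUT7, whose uridine tail marks the precursor for the exonuclease DIS3L2. An unbound precursor is cut by DICER1 to the mature microRNA. Mature let-7 represses mRNAs that carry its seed match, and LIN28B, HMGA2 and IGF2BP1 are textbook examples. IGF2BP proteins bind and stabilise mRNAs, many of them methylated at adenosine, and HMGA proteins bend DNA at AT-rich stretches. Most of these genes are active in the embryo, silent in adult tissue and active again in tumours, and LIN28B is a known driver of neuroblastoma.

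The let-7 sequences are shown because the shared seed defines which mRNAs the family can pair with. RefSeq (GRCh38.p14) gives 12 let-7 family loci with 9 mature names, and all of them share bases 2 to 8, in capitals here, while they differ further along.
hsa-let-7a-5p: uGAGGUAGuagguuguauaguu
hsa-let-7d-5p: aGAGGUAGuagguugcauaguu
hsa-let-7e-5p: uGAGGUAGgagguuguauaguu
hsa-let-7i-5p: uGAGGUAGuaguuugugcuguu
hsa-miR-98-5p: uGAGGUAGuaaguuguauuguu

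The match to that seed, CTACCTC, was searched in the annotated 3' UTRs of GENCODE 29 on the strand of the transcript, as DNA letters. At least 1 transcript of 7 of the 9 genes held it, DICER1 and DIS3L2 being the exceptions. LIN28B had 4 matches in its longest 3' UTR of 4549 bases, and IGF2BP1 had 4 in 6206 bases. IGF2BP3 had 1 match in 2153 bases, HMGA1 1 in 1347 bases, LIN28A 1 and IGF2BP2 1. For HMGA2 the longest annotated 3' UTR, 7421 bases, held 0 matches and another transcript with 3003 bases held 4. The sites below are those of the abundant members, with the first HMGA2 site for comparison, and the capitals mark the match.
LIN28B site 1 (chr6:105078812-105078834, plus strand): acccggttgcaaagtCTACCTCa
LIN28B site 2 (chr6:105081239-105081261, plus strand): tactgatgatagtaaCTACCTCt
LIN28B site 3 (chr6:105081421-105081443, plus strand): gtttacagcaaaaggCTACCTCa
LIN28B site 4 (chr6:105082860-105082882, plus strand): aaatgatggtgttgaCTACCTCt
IGF2BP3 (chr7:23311795-23311817, minus strand): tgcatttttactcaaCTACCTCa
HMGA1 (chr6:34245829-34245851, plus strand): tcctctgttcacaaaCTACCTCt
HMGA2 site 1 (chr12:65963298-65963320, plus strand): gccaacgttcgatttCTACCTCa
Coordinates are GRCh38. An adenine follows the match in LIN28B sites 1 and 3, in IGF2BP3 and in HMGA2 site 1, which in microRNA pairing is the stronger kind of site. Among 13903 tested genes with an annotated 3' UTR, 1512 (10.9%) held a match in the longest one, and 11 held at least 4. Longer 3' UTRs hold more matches: of 1820 genes with over 4000 bases, 559 had one. A match is a stretch of letters, and binding of let-7 to it was not measured.

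Gene counts summed to 38284663 and 40863047 in shTTC8 and to 51168727 and 55331449 in shScb. TTC8, which encodes a subunit of the BBSome, a complex that carries membrane proteins in cilia, had 29.1 and 30.6 CPM (counts scaled to the depth of the library) in shTTC8, against 196 and 191 in shScb (log2 fold change -2.70 with SE 0.07, edgeR adjusted p = 5.38e-12). Of 19610 genes tested, 31.9% were called at an adjusted p under 0.05, 15.2% higher and 16.7% lower in shTTC8. In 65.5% the shTTC8 pair of libraries did not overlap the shScb pair. The 12 neuroblastoma markers were detected in all libraries and summed to 9916 to 10180 CPM in shTTC8 and 11769 to 12105 CPM in shScb; without MYCN the sums were 6203 to 6360 CPM in shTTC8 and 6109 to 6290 CPM in shScb. Of these 12, 3 were called higher, CHGB the most at 1.41, and 7 lower. The 17 markers of other cell types summed to 58.6 to 59.1 CPM in shTTC8 and 260 to 273 CPM in shScb. Of these 17, 10 were tested, and 0 were called higher and 7 lower. LUM, a matrix proteoglycan, was at 28.6 to 31.2 CPM in shTTC8 and 180 to 191 CPM in shScb. Among the other fibroblast markers, DCN was at 33.7 to 33.9 CPM in shScb and COL3A1 at 13.9 to 14.6 CPM. COL1A1 was at 4.93 to 5.56 CPM in shScb and COL1A2 at 0.092 to 0.138 CPM. PECAM1, CD3E and SOX10 were at 0 in all 4 libraries. In bulk RNA, fewer cells of a type and less RNA per cell cannot be told apart, and the part of these markers in the results that follow was not tested.

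Of the 9 members, 6 passed the low-count filter, and of these 1 was called higher and 2 lower, against 31.9% called over all tested genes. The groups did not overlap in 4 of the 6, against 65.5% of all tested genes, so that separation is common in these libraries. IGF2BP1 passed the filter on 37 counts over the 4 libraries. The plot of member levels shows each library.

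**Figure D1:**
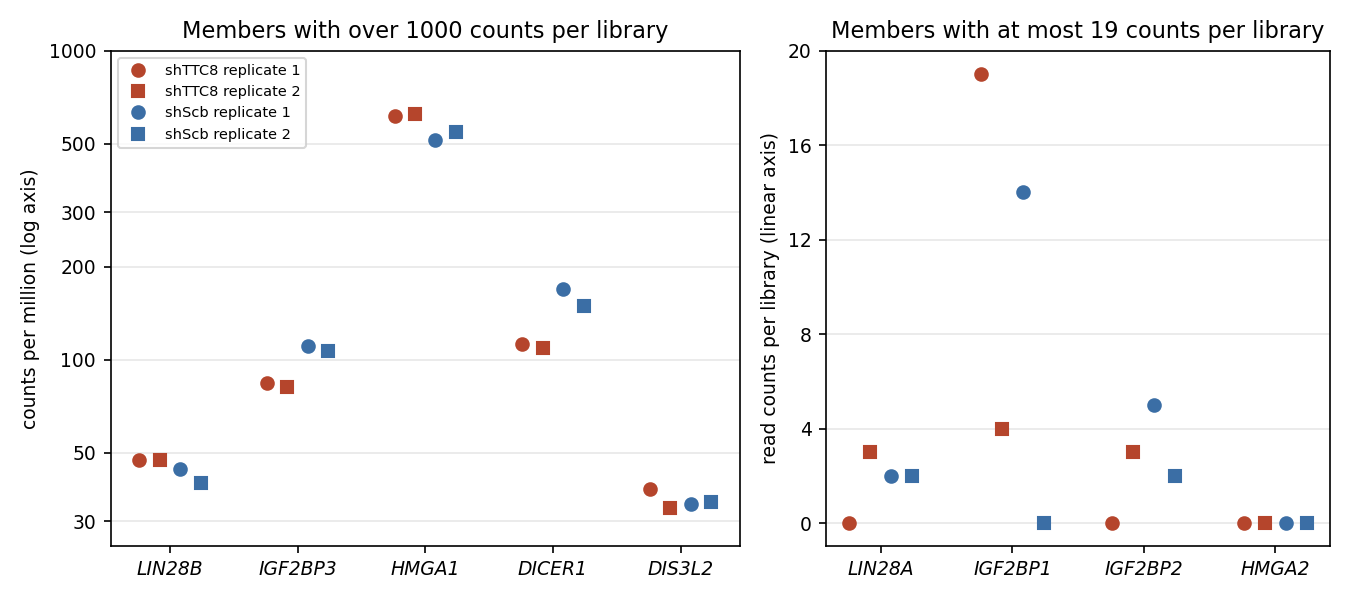
Level of the 9 members in each library, in CPM on a log axis for 5 members (left) and in read counts on a linear axis for 4 (right); red marks shTTC8, blue shScb, circles replicate 1 and squares replicate 2. DICER1 and IGF2BP3 lie lower in both shTTC8 libraries than in both shScb libraries, HMGA1 and LIN28B lie higher, DIS3L2 overlaps, and no member on the right reaches 20 counts.

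LIN28B (ENSG00000187772, chr6:104936616-105083332, plus strand), the LIN28 paralogue linked to neuroblastoma, had 1838 and 1964 counts in the shTTC8 libraries and 2241 and 2166 in the shScb libraries. Scaled to depth these were 47.3 and 47.4 CPM in shTTC8, against 44.3 and 39.9 CPM in shScb. The shTTC8 libraries nearly coincided and lay above both shScb libraries. Means were 47.4 ± 0.0891 CPM in shTTC8 and 42.1 ± 3.17 CPM in shScb (SD, n = 2 each). The log2 fold change was 0.17 (SE 0.08, edgeR adjusted p = 0.12), so LIN28B was not called. It was called without shScb replicate 1 (0.25, edgeR adjusted p = 0.0218) and after an offset for exon length and GC content (0.31, edgeR adjusted p = 0.00208), and its log2 fold change ran from 0.10 to 0.31 over 13 alternatives.

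LIN28A (ENSG00000131914, chr1:26410778-26429722, plus strand), the paralogue of embryonic stem cells, had 0 and 3 counts in shTTC8 and 2 and 2 in shScb, and was not tested. LIN28B thus made up at least 99.8% of the LIN28 counts in every library. A count of 0 was taken to allow up to 3 counts, which is 0.0772 CPM in shTTC8 replicate 1. The two-sided 95% counting interval for a count of 0 reaches 3.69 counts. Such limits cover counting error only.

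DIS3L2 (ENSG00000144535, chr2:231961245-232344350, plus strand), the exonuclease that degrades uridylated let-7 precursors, had 1481 and 1373 counts in shTTC8 and 1723 and 1887 in shScb. That was 38.1 and 33.2 CPM in shTTC8, against 34.1 and 34.7 CPM in shScb. The highest and the lowest library were both shTTC8, so the groups overlapped. The log2 fold change was 0.05 (SE 0.09, edgeR adjusted p = 0.711), and it was -0.05 without shTTC8 replicate 1.

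DICER1 (ENSG00000100697, chr14:95086228-95158010, minus strand), which cuts microRNA precursors to their mature form, was the member with the largest called difference. It had 4360 and 4516 counts in shTTC8 and 8538 and 8087 in shScb. That was 112 and 109 CPM in shTTC8, against 169 and 149 CPM in shScb. The groups stood well apart, and the shScb libraries spread more than the shTTC8 libraries. DICER1 was at 111 ± 2.23 CPM in shTTC8 and 159 ± 14.2 CPM in shScb (SD, n = 2 each). It was lower in shTTC8, at 0.697 of the shScb level (log2 fold change -0.52 with SE 0.07, edgeR adjusted p = 3.95e-05). The call held under all 13 alternatives, from -0.61 to -0.33. The weakest, -0.33, came with the offset for exon length and GC content. The antisense transcript DICER1-AS1, chosen after its values were seen and not separable by strand with this kit, shares 80 exonic bases and had 7.38% of DICER1's counts. It stood at 10.7 and 10.5 CPM in shTTC8 and 9.54 and 10.1 CPM in shScb (log2 fold change 0.11, edgeR adjusted p = 0.549).

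IGF2BP3 (ENSG00000136231, chr7:23310209-23470467, minus strand), an oncofetal mRNA stabiliser, was the IGF2BP paralogue with the most counts. It had 3253 and 3385 counts in shTTC8 and 5596 and 5816 in shScb. That was 83.8 and 81.8 CPM in shTTC8, against 111 and 107 CPM in shScb. Both groups were tight and did not overlap, at 82.8 ± 1.4 CPM in shTTC8 and 109 ± 2.62 CPM in shScb (SD, n = 2 each). The log2 fold change was -0.40 (SE 0.06, edgeR adjusted p = 1.77e-04), and 0.76 of the shScb level was left. IGF2BP3 was called lower in all 13 alternatives, from -0.42 to -0.24, the -0.24 being the value with the offset for exon length and GC content. MALSU1, a mitochondrial ribosome assembly factor chosen after its values were seen, lies on the opposite strand and shares 1521 bases, 17.9% of the exonic length of IGF2BP3. Its counts were 34.5% of those of IGF2BP3. MALSU1 had 35.2 and 36.7 CPM in shTTC8 and 30.6 and 32.9 CPM in shScb (log2 fold change 0.18, SE 0.08, edgeR adjusted p = 0.124), a difference of the other sign, and was called without shScb replicate 2 (0.23, edgeR adjusted p = 0.0462) and with the offset (0.27, edgeR adjusted p = 0.0164). The sources used here do not say how reads from the shared bases were counted, so the values of both genes are uncertain to that extent.

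IGF2BP1 (ENSG00000159217, chr17:48997412-49055650, plus strand), a let-7 target that stabilises MYC and other mRNAs, had 19 and 4 counts in shTTC8 and 14 and 0 in shScb. In each group nearly all counts came from replicate 1. The fitted log2 fold change, 1.08 with SE 1.38 (edgeR adjusted p = 0.62), rested on those few counts: it was -0.49 without shTTC8 replicate 1 (edgeR adjusted p = 0.885) and 6.72 without shScb replicate 1 (edgeR adjusted p = 0.0138). IGF2BP2 (ENSG00000073792, chr3:185643739-185825056, minus strand), the paralogue most widely expressed in adult tissue, had 0 and 3 counts in shTTC8 and 5 and 2 in shScb, and was not tested. IGF2BP3 accordingly held 99.4% or more of the IGF2BP counts in each library.

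HMGA1 (ENSG00000137309, chr6:34236873-34246231, plus strand), an architectural chromatin protein of dividing and embryonic cells, was the most abundant member. It had 23911 and 25828 counts in shTTC8 and 25972 and 29677 in shScb. That was 616 and 624 CPM in shTTC8, against 514 and 546 CPM in shScb. The groups did not overlap, at 620 ± 5.9 CPM in shTTC8 and 530 ± 22.8 CPM in shScb (SD, n = 2 each). HMGA1 was called higher in shTTC8 (log2 fold change 0.23 with SE 0.06, edgeR adjusted p = 0.00993). The call did not hold without shTTC8 replicate 1 (0.23, edgeR adjusted p = 0.0874), without shTTC8 replicate 2 (0.22, edgeR adjusted p = 0.106) and with the offset for exon length and GC content (0.07, edgeR adjusted p = 0.253). Of its 8 annotated pseudogenes, 3 had counts, together 0.207% of those of HMGA1. HMGA2 (ENSG00000149948, chr12:65824131-65966295, plus strand), the paralogue with the classic let-7 sites, had 0 counts in all 4 libraries. By the limit of 3 counts, that allows up to 0.0772 CPM in the shallowest.

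**Figure D2:**
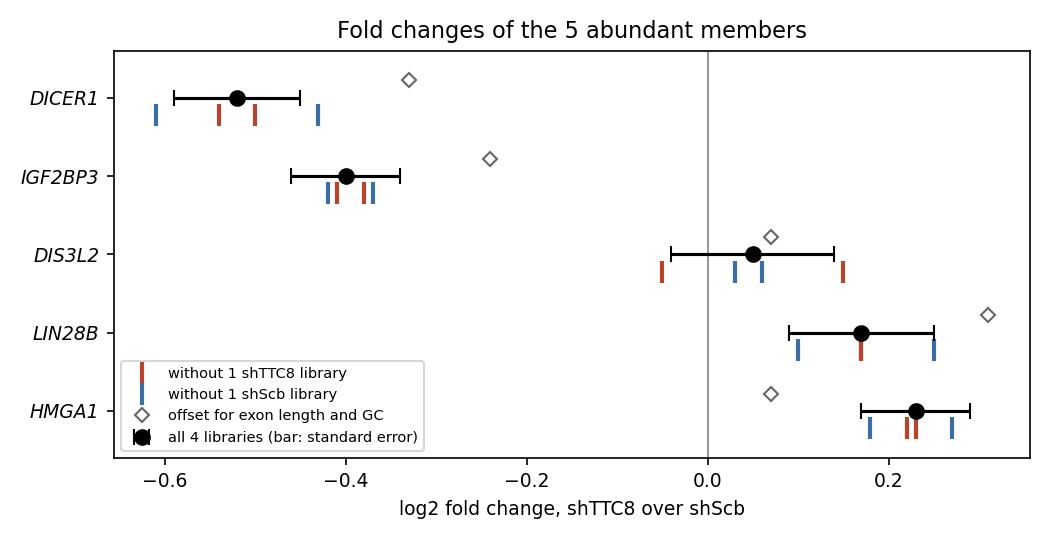
Log2 fold change of shTTC8 over shScb for the 5 abundant members: black points are the fit on all 4 libraries with standard errors, red and blue ticks the fits without 1 shTTC8 or 1 shScb library, and open diamonds the fit with an offset for exon length and GC content. DICER1 and IGF2BP3 stay below 0 under each of these fits, whereas the diamond moves LIN28B up to 0.31 and HMGA1 down to 0.07.

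Levels of different genes can be compared only per exonic length, here as CPM per kilobase of exon. HMGA1 stood far above the others, at 266 ± 2.54 CPM per kilobase in shTTC8 and 228 ± 9.78 in shScb. In shTTC8, IGF2BP3 came next at 9.72 ± 0.164, then DICER1 at 9 ± 0.181, LIN28B at 7.89 ± 0.0148 and DIS3L2 at 3.14 ± 0.309 CPM per kilobase (SD, n = 2 each). In shScb, DICER1 at 12.9 ± 1.16 and IGF2BP3 at 12.8 ± 0.308 CPM per kilobase did not differ beyond their spread, and LIN28B at 7.01 ± 0.528 and DIS3L2 at 3.03 ± 0.0394 followed.

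The members also differ in base composition, which the choice of genes did not use. The longest transcript of HMGA1 has 61.3% GC and the gene 2327 exonic bases. LIN28B (38.1% GC, 6002 bases), DICER1 (39.2% GC, 12294 bases) and IGF2BP3 (40.5% GC, 8511 bases) lie on the other side of the median of tested genes, 48.9% GC and 4203 bases. DIS3L2 has 53.5% GC and 11337 bases. The offset for both properties moved the GC-rich HMGA1 down and the 3 GC-poor members up; the cause of the trend was not tested.

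The genes nearest to LIN28B in pattern were looked up among 11459 tested genes of at least 5 CPM, by Euclidean distance between centred log2 CPM over the 4 libraries. They were RNF139, an endoplasmic reticulum ubiquitin ligase (distance 0.0125), MICU3, a regulator of mitochondrial calcium uptake (0.0134), and RBBP6, a ubiquitin ligase that binds RB (0.0135). Their log2 fold changes were 0.16 to 0.18 and none was called on all 4 libraries. RNF139 and RBBP6 were, as LIN28B was, called without shScb replicate 1. With the offset MICU3 (0.31, edgeR adjusted p = 0.0296) and RBBP6 (0.29, edgeR adjusted p = 5.66e-04) were called, and RBBP6 also with library size alone (0.20, edgeR adjusted p = 0.0336). The genes nearest to DICER1 were CDK6, a kinase of the G1 phase (distance 0.0165), TRAF6, a ubiquitin ligase of innate signalling (0.0236), and RO60, which binds Y RNAs (0.0296). All 3 were called lower, at -0.54, -0.51 and -0.51. With 4 libraries many genes share such a pattern, and no p-value applies to it.

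The other genes of the let-7 pathway were followed in lists, each described by counts and its median log2 fold change beside the median of all tested genes, 0.00353. Calls made up 33.3% of the microRNA processing list and 33.3% of the let-7 hosts, close to the 31.9% of all tested genes, and 25% of the IGF2BP partners. They made up 56.2% of the let-7 decay list, 48.5% of the let-7 targets, 68.8% of the IGF2BP targets and 58.3% of the other oncofetal genes. Most genes of these lists code for proteins, and such genes were called more often than all tested genes. Among tested genes with an annotated 3' UTR and no let-7 seed match, 18.6% were higher and 20.6% lower. The lists were also chosen with earlier results of these data known. In the list of let-7 decay and terminal uridylation, 1 gene was higher and 8 were lower of 16 tested, with a median of -0.17. Without shTTC8 replicate 1, 4 of these genes were called in all. TUT7, which adds the uridine tail, had 18.4 and 19.3 CPM in shTTC8 and 23.3 and 23.1 CPM in shScb and was called lower (log2 fold change -0.30, SE 0.09, edgeR adjusted p = 0.0209). That call was lost without either shTTC8 library (edgeR adjusted p = 0.161 and 0.0653) and with the offset (0.111). TUT4, which shares its role, had 51.8 and 50.9 CPM in shTTC8 and 55.9 and 52.5 CPM in shScb and was not called (-0.08, SE 0.07, edgeR adjusted p = 0.456); the sign turned to 0.10 with the offset.

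Among the nucleases of that list, DIS3, the catalytic subunit of the nuclear exosome and a relative of DIS3L2, had 22.1 and 22.3 CPM in shTTC8 and 35.7 and 33.0 CPM in shScb (log2 fold change -0.63, SE 0.09, edgeR adjusted p = 6.52e-05). BORA, on the opposite strand, covers 10.9% of the exonic length of DIS3 and had 15.4% of its counts. The exosome nuclease EXOSC10 was lower at -0.29 (SE 0.06, edgeR adjusted p = 0.00162). The poly(A) polymerase TENT2 was lower at -0.64 (SE 0.09, edgeR adjusted p = 7.31e-05). The 1 gene called higher was TRIM71, a ubiquitin ligase and let-7 target of the early embryo, with 19.9 and 19 CPM in shTTC8, against 10.8 and 9.70 CPM in shScb (0.92, SE 0.11, edgeR adjusted p = 1.41e-05). TRIM71 has 6 let-7 seed matches in its longest 3' UTR, more than any member.

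Among 18 tested genes of microRNA processing, 4 were higher and 2 lower, with a median of 0.07. Without shTTC8 replicate 2, 3 were called in all. The Dicer partner TARBP2 had 61.5 and 62.7 CPM in shTTC8 and 45.7 and 51.5 CPM in shScb (log2 fold change 0.36, SE 0.08, edgeR adjusted p = 0.00238), a difference of the other sign than that of DICER1. The Argonaute AGO1 (0.31, SE 0.07), the RNA processing factor SRRT (0.28, SE 0.06) and the Microprocessor helicase DDX5 (0.26, SE 0.06) were higher as well, at edgeR adjusted p = 0.00309, 0.00328 and 0.00389. The call of AGO1 was lost without shTTC8 replicate 1 and that of DDX5 without shTTC8 replicate 2. RAN, which powers export of the precursor, was not called, at 0.08 (SE 0.06, edgeR adjusted p = 0.333), except with the offset (0.15, edgeR adjusted p = 0.0303).

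The let-7 microRNAs themselves were not measured as mature molecules, and the gene rows of their hairpins were close to empty. Those of MIRLET7A1, MIRLET7A2, MIRLET7E, MIRLET7F2, MIRLET7G and MIR98 were at 0 in every library, and none of the other hairpins read here exceeded 8 counts in a library. Longer annotated transcripts that hold or lie beside these hairpins had more counts. Of 6 matched host transcripts, 2 were called higher and 4 were not called, with a median of 0.08. MIR99AHG, from which let-7c comes, had 9.68 and 10.5 CPM in shTTC8 and 5.01 and 7.34 CPM in shScb (log2 fold change 0.71, SE 0.17, edgeR adjusted p = 0.00674). Leaving out shScb replicate 1 gave 0.46 and leaving out shScb replicate 2 gave 1.01, called in both. MIR100HG, the host of MIRLET7A2, had 27.2 and 26.0 CPM in shTTC8 and 21.6 and 20.9 CPM in shScb (0.33, SE 0.09, edgeR adjusted p = 0.0112). Without shTTC8 replicate 1 it was at 0.29 and not called (edgeR adjusted p = 0.11).

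The other hosts were not called. MIRLET7A1HG, whose annotated row lies between the hairpins of MIRLET7F1 and MIRLET7D and contains neither, had 1.00 and 2.08 CPM in shTTC8 and 2.65 and 2.10 CPM in shScb (edgeR adjusted p = 0.174, log2 fold change -0.62 with SE 0.32). It was called without shTTC8 replicate 2 (-1.24, edgeR adjusted p = 0.0135) and came to -0.19 without shTTC8 replicate 1 (edgeR adjusted p = 0.738). MIRLET7BHG, which yields let-7b, had 12.8 and 10.4 CPM in shTTC8 and 10.6 and 12.0 CPM in shScb, so its groups overlapped (0.04, SE 0.13). HUWE1, whose introns hold MIR98 and MIRLET7F2, stood at -0.07 and WDR82, which hosts MIRLET7G, at 0.11, or 0.18 and called with the offset (edgeR adjusted p = 0.00583). Outside the list and chosen after its values were seen, MIRLET7IHG, which holds MIRLET7I, had 3.6 and 3.7 CPM in shTTC8 and 4.51 and 4.62 CPM in shScb and was not called (-0.32, SE 0.18, edgeR adjusted p = 0.21).

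Of 36 genes described as let-7 targets, 33 were tested, 9 were called higher and 7 lower, with a median of -0.04. The 16 calls came to 10 without shTTC8 replicate 1 and to 9 without shTTC8 replicate 2. IGF2, the fetal growth factor, had 147 and 139 CPM in shTTC8, against 86.7 and 90.6 CPM in shScb (log2 fold change 0.69, SE 0.06, edgeR adjusted p = 1.05e-06). CDC34, a ubiquitin-conjugating enzyme of the cell cycle, had 140 and 139 CPM in shTTC8 and 92.0 and 98.8 CPM in shScb (0.55, SE 0.06, edgeR adjusted p = 9.29e-06). MYCN, the amplified oncogene, had 3713 and 3820 CPM in shTTC8 and 5661 and 5815 CPM in shScb (-0.61, SE 0.06, edgeR adjusted p = 3.49e-06). AURKA, the kinase that stabilises N-Myc, was not called (-0.05, SE 0.08, edgeR adjusted p = 0.678). Chosen after their values were seen, ARID3B (0.66), HRAS (0.66), CDC25A (0.55) and PLAGL2 (0.46) were higher, and CDK6 (-0.54), CCND1 (-0.26) and NRAS (-0.24) were lower. The RAS genes of the list thus did not move one way. Genes stand in this list as described targets, and not every one holds the seed match searched here. IGF2, MYCN, HRAS, CDK6 and CCND1 held 0 matches in any annotated 3' UTR searched. CDC34, ARID3B, PLAGL2 and NRAS held 1 match each and CDC25A held 2. The calls of CCND1 and NRAS were lost without either shTTC8 library.

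**Figure D3:**
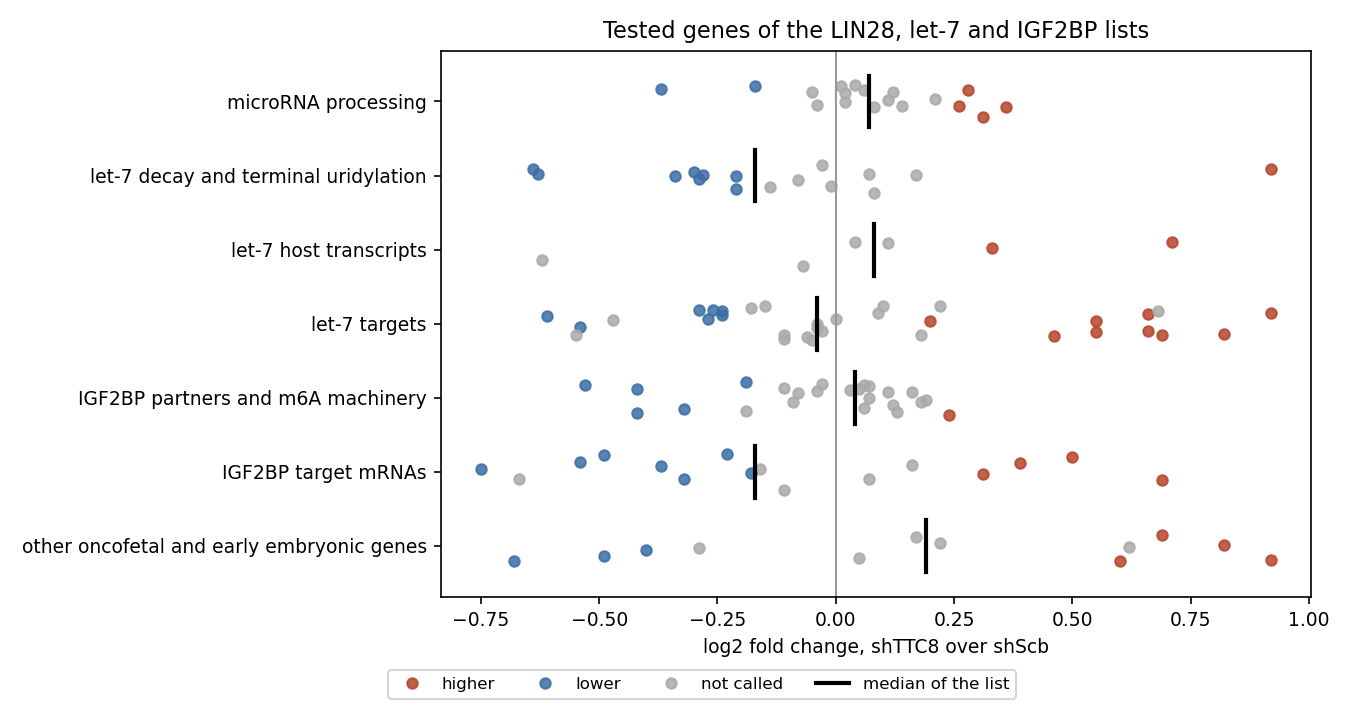
Log2 fold change of shTTC8 over shScb for each tested gene of the 7 lists, 1 point a gene; red points were called higher, blue lower and grey not called, and black bars are list medians. The let-7 targets hold 9 red and 7 blue points around a median of -0.04, and the let-7 decay list holds 8 blue points and 1 red one, TRIM71 at 0.92.

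Seed matches were then set against the calls over all tested genes, as counts with no test. Among genes with at least 1 match in the longest 3' UTR, 19.5% were called higher and 21.8% lower, against 18.6% and 20.6% among genes with none. With at least 2 matches, 19.6% were higher and 29.3% lower, and the median log2 fold change was -0.06. Those genes had a median 3' UTR of 5123 bases, against 1198 bases among genes with no match, and length moved with the calls: 13.3% of genes with up to 500 bases were lower, against 30.2% of those with over 4000. Up to 500 bases, genes with a match were called lower in 14.5% and higher in 27.4%, against 13.2% and 19.9% without. From 500 to 1000 bases these shares were 15.7% lower and 26% higher with a match, and 17.7% and 20.5% without. From 1000 to 2000 bases they were 18.9% lower and 21.5% higher with a match, and 20.8% and 19.6% without. Between 2000 and 4000 bases, genes with a match were called lower in 18.6% and higher in 22.9%, against 26.5% and 16.1% without. Over 4000 bases the shares were 28.3% lower and 13.2% higher with a match, and 31% and 14.9% without.

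**Figure D4:**
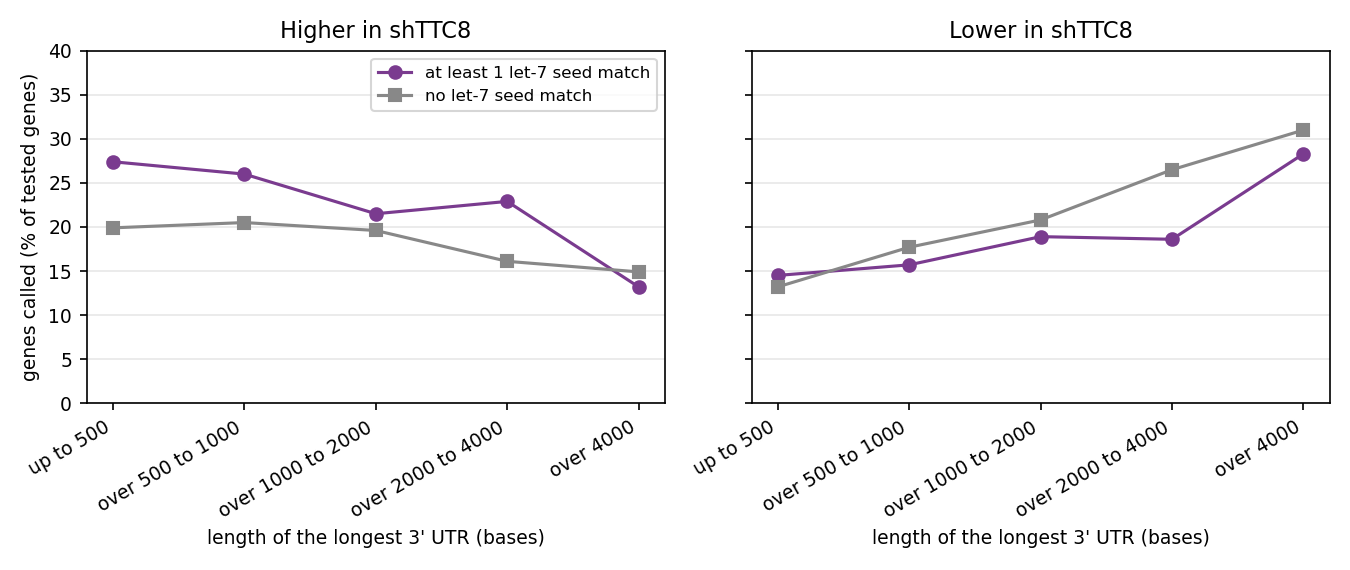
Share of tested genes called higher (left) and lower (right) in shTTC8, in percent, by length of the longest annotated 3' UTR in bases, for genes with at least 1 let-7 seed match (purple circles) and with none (grey squares). The share called lower is highest over 4000 bases in both classes, at 28.3% with a match and 31% without one.

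Among the tested genes with at least 4 matches, LIN28B and IGF2BP1 were not called. TRIM71 (0.92) and NR6A1 (0.82) were called higher, and ZBTB37 (-0.46) and HEMK1 (-0.39) lower, with no test of the group. The call of NR6A1 held under 6 of 13 alternatives, and its fold change ran from 0.48 without shScb replicate 1 to 1.26 without shScb replicate 2. HEMK1 was not called without shTTC8 replicate 1, at -0.35 and an edgeR adjusted p = 0.0779. NR6A1, ZBTB37 and HEMK1 were named for their matches, after their values were seen, and not every gene of the group is named.

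Partners of the IGF2BP proteins and the machinery of N6-methyladenosine gave 1 gene higher and 5 lower of 24 tested, with a median of 0.04. VIRMA, a scaffold of the methyltransferase complex, had 75.0 and 75.1 CPM in shTTC8, against 111 and 106 CPM in shScb (log2 fold change -0.53, SE 0.06, edgeR adjusted p = 1.45e-05). METTL14, its RNA-binding subunit, was lower at -0.42 (SE 0.09, edgeR adjusted p = 0.00175), while the catalytic subunit METTL3, chosen after its values were seen, had 62.0 and 60.2 CPM in shTTC8 and 59.7 and 58.0 CPM in shScb and was not called (0.05, edgeR adjusted p = 0.595). YBX1, which joins IGF2BP on mRNAs, had 1043 and 1034 CPM in shTTC8 and 1352 and 1428 CPM in shScb (-0.42, SE 0.06, edgeR adjusted p = 9.50e-05); its 10 pseudogenes had 2.73% of its counts. The poly(A)-binding PABPC1 was lower at -0.32 (SE 0.06, edgeR adjusted p = 9.26e-04). With the offset for exon length and GC content, 12 genes of this list were called in place of 6.

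Of 19 mRNAs described as bound by IGF2BP proteins, 16 were tested, 4 were called higher and 7 lower, with a median of -0.17. CD44, an adhesion receptor, had 93.1 and 102 CPM in shTTC8, against 170 and 158 CPM in shScb (log2 fold change -0.75, SE 0.07, edgeR adjusted p = 1.07e-06). SRF, a transcription factor of actin genes, was higher, with 68.2 and 62.5 CPM in shTTC8 and 45.8 and 46.9 CPM in shScb (0.50, SE 0.07, edgeR adjusted p = 1.15e-04). IGF2, for which the family is named, was higher as given above, and the neighbouring noncoding RNA H19, chosen after its values were seen, was lower, with 923 and 835 CPM in shTTC8 and 1123 and 1342 CPM in shScb (-0.49, SE 0.09, edgeR adjusted p = 0.00219). MYC, the best known IGF2BP target, had 9 and 0 counts in shTTC8 and 0 and 3 in shScb and was not tested.

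Other oncofetal and early embryonic genes gave 4 higher and 3 lower of 12 tested, with a median of 0.19. DLK1, an imprinted Notch ligand of fetal tissue, had 661 and 645 CPM in shTTC8 and 419 and 443 CPM in shScb (log2 fold change 0.60, SE 0.06, edgeR adjusted p = 3.25e-06). GPC3, an oncofetal heparan sulfate proteoglycan, had 18.2 and 17.7 CPM in shTTC8 and 29.5 and 27.9 CPM in shScb (-0.68, SE 0.09, edgeR adjusted p = 4.72e-05). AFP, DPPA2, DPPA4, L1TD1, TDGF1 and PRDM14 were at 0 in every library, as was HMGA2, while LIN28B, IGF2BP3 and HMGA1 had at least 1838 counts in each. The lists share genes: IGF2 and TRIM71 stand in 3 of them and CDK6 in 2, so their counts are not independent.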

How the data were processed

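RNA was sequenced from 4 libraries of SK-N-BE(2) cells. TRIzol extraction and an Illumina TruSeq kit, which does not mark strand, were used per the labels' protocols. The submitters' processing notes name HISAT2 2.2.0 and hg38. The read counter and its annotation: not given in the sources used here. Values as deposited are raw counts, 1 whole number per Ensembl gene and library, which the authors did not normalize. Groups came from sample titles.

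Symbols came from a gene name table (40995 IDs) or GENCODE 29 (15596); 7661 IDs had none. Members and lists were chosen with earlier results of these data known, and named genes follow a rule: the 9 members, TTC8, TUT4, TUT7, TRIM71, MYCN, AURKA, RAN, the let-7 hosts, up to 4 called genes a list by smallest p, and the 3 nearest in pattern to LIN28B and to the member of largest change.

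In R 4.3.3, edgeR 4.0.16 (filterByExpr, TMM, robust quasi-likelihood F test, two-sided, Benjamini-Hochberg over 19610 genes, threshold 0.05) compared the groups. The biological coefficient of variation was 10.5%. CPM use TMM-scaled library sizes, and a standard error is the log2 fold change over the root of F. The fit was checked on simulated data. The alternatives comprised DESeq2 1.42.0, limma-voom (limma 3.58.1), a non-robust fit, scaling by RLE or by library size alone, no filter or a filter of 1 CPM in 2 libraries, a block for the replicate number, and leaving out each library. An offset for exon length and GC content (lowess span 0.3, covering 93.4% of tested genes) was added after seeing the data. Replicates differed beyond counting noise (chi-square per degree of freedom 6.88 in shTTC8 and 12.5 in shScb). Some genes are not reported here.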

Additional observations from a re-analysis of the deposited data

How the results depend on the processing

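The counts and the named genes were recomputed under 13 alternatives, apart from the marker counts and the cell markers other than MYCN. Of these alternatives, the offset for exon length and GC content was chosen after seeing the data. DICER1, IGF2BP3 and TTC8 kept their direction and call under all 13, and 2 members were called lower each time. Genes called higher numbered 2974, and 1880 to 3395 with 1 library left out, the lowest without shTTC8 replicate 1; genes called lower numbered 3284, and 2383 to 3555. DESeq2 called 2321 higher and 2880 lower, and library size alone 3508 higher and 2835 lower. Members called higher ran from 0 to 3 with 1 library left out. LIN28B ran from 0.10 to 0.25 and reached 0.31 with the offset. HMGA1 ran from 0.18 to 0.27 and came to 0.07 with the offset. IGF2BP1 ran from -0.49 to 6.72 and DIS3L2 from -0.05 to 0.15. With 1 library left out, called genes numbered 3 to 6 in microRNA processing, 4 to 8 in let-7 decay, 1 to 3 among let-7 hosts, 9 to 17 among let-7 targets and 4 to 8 among IGF2BP partners and m6A machinery, which reached 12 with the offset. Among other named genes the sign turned for AURKA without shScb replicate 2 (0.0049, in a range down to -0.10), for MIRLET7BHG without shTTC8 replicate 1 (-0.12, in a range up to 0.19), without shScb replicate 1 (-0.04) and with the offset (-0.06), and for TUT4 with the offset (0.10). The cause of these changes was not tested.

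The replicate numbers pair no samples by the labels, and deviations of same-numbered libraries correlated at 0.0317 across genes. With the replicate block, 3092 genes were higher and 3343 lower, and LIN28B stayed at 0.17 (edgeR adjusted p = 0.14). The fits without a library assume that the lone sample left varies like the other group. IGF2BP1 has no value under DESeq2 or the filter of at least 1 CPM in 2 libraries. LIN28A, IGF2BP2 and HMGA2 lie at the limit of depth, so a difference between groups was not detectable for them.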
